A study of Caenorhabditis elegans with 12 samples.

Results

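This account describes what *lpin-1* RNAi did to gene expression in worms fed extra glucose: the 3 libraries of *lpin-1(RNAi)* worms kept with 2% added glucose were compared, over all genes, with the 3 libraries of *control(RNAi)* worms kept in the same way. These are 6 of the 12 libraries of the study, and 14696 of the 46778 genes in the files had enough counts to be tested. All animals were *Caenorhabditis elegans* of strain N2, the wild-type laboratory strain, sampled whole as adults. They fed from the egg on bacteria that make double-stranded RNA, induced by 10 mM IPTG, and as day 1 adults they were moved to plates with 10 μM FUdR, which stops eggs from hatching, and with or without the added glucose. The other 6 libraries, 3 of *lpin-1(RNAi)* and 3 of *control(RNAi)* worms on control diets, are used here only to set the effect of the RNAi on glucose beside its effect without glucose. RNAi by feeding lowers a transcript without removing it, and it acts in many tissues at once.

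*lpin-1* encodes lipin, an enzyme that removes the phosphate of phosphatidic acid and so makes diacylglycerol, the precursor of both triacylglycerol and the main membrane phospholipids. In mammals, lipins are also known to enter the nucleus and to alter the activity of transcription factors of fat metabolism. In worms most fat is made and stored in the intestine and the hypodermis, and the intestine also makes the yolk proteins that carry lipid to oocytes. The Δ9 desaturases FAT-5, FAT-6 and FAT-7 convert saturated into monounsaturated fatty acids, and their genes are controlled by the sterol-response factor SBP-1, the Mediator subunit MDT-15 and the nuclear hormone receptors NHR-49 and NHR-80.

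Each library held between 17019081 and 31482749 counts on genes in the compared groups. Levels are given as CPM, counts scaled by library depth and TMM factors and not divided by gene length, and differences as log2 fold changes of *lpin-1(RNAi)* over *control(RNAi)*. Tests are the quasi-likelihood test of edgeR, with *p*-values adjusted by the method of Benjamini and Hochberg over all 14696 genes, named the edgeR adjusted *p* hereafter. A gene was called higher or lower where its log2 fold change lay beyond 1 in size and its adjusted *p* was under 0.05. The labels do not say whether replicates came from separate cultures, so *p*-values measure the spread between these samples only. The targeted gene, *lpin-1* (WBGene00010425, chromosome V from 13650262 to 13654129 of WBcel235), was at 108, 105 and 122.2 CPM in *lpin-1(RNAi)* animals, against 182, 161 and 151 CPM in *control(RNAi)* animals. All 3 *lpin-1(RNAi)* libraries lay under all 3 control libraries (log2 fold change −0.56, standard error 0.10, edgeR adjusted *p* = 6.2e-04), so the transcript was reduced and not absent, and by less than the threshold for a call.

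A total of 1181 genes were higher in *lpin-1(RNAi)* animals (8.04% of the genes tested) and 618 were lower (4.21%). Counts of calls in the gene lists are to be read against these shares. Their median log2 fold changes were 1.71 and −1.63, and 231 of the higher and 60 of the lower genes changed more than 8-fold. The CPM of the groups did not overlap for 1173 of the higher and 613 of the lower genes, against 52.0% of all tested genes. By the adjusted *p* alone, 2353 genes were higher (16.0%) and 2321 lower (15.8%). The split of the calls depends on the scaling: 65.6% of them were higher with TMM, and 76.8% (1624 higher, 490 lower) when libraries were scaled by their totals, which moved the median log2 fold change of all tested genes to 0.23, against 0.03 with TMM. Chromosome V carried the most calls, with 363 genes higher and 199 lower of 2856 tested, and chromosome I the smallest share among the nuclear chromosomes, with 111 and 41 of 2367.

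Some genes were close to silent in *control(RNAi)* animals. A total of 65 genes had at most 3 counts in every control library and at least 10 in every *lpin-1(RNAi)* library, and 5 genes showed the reverse. Such counts nearly fix the call, so the 64 called higher among the 65 are no separate result. On control diets 60 of the 65 were called higher as well, though not always at a like level. *spp-9*, 1 of the 60, was at a mean of 26.2 CPM in *lpin-1(RNAi)* animals with glucose and 0.0998 CPM without. Among the silent genes, *sdz-35* had 669, 730 and 621 counts in *lpin-1(RNAi)* animals, against 0, 3 and 2 in *control(RNAi)* animals, at least 176-fold higher when the controls are set to 3 counts per library. *F22E5.6* had 469, 483 and 370 counts, against 0, 0 and 0, which is at least 115-fold. *C30H6.12* (at least 35.3-fold), *ZK1307.2* (at least 13.8-fold) and WBGene00269338, annotated as a pseudogene (at least 32.9-fold), completed the uncharacterised genes among the largest rises with no control signal.

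The largest rise in CPM among the called genes was that of *Y41C4A.32* (WBGene00270321, chromosome III from 11721706 to 11723607 of WBcel235), a gene with no given name. It was at 2668, 2861 and 2437 CPM in *lpin-1(RNAi)* animals, against 3.26, 4.9 and 4.09 CPM in *control(RNAi)* animals (log2 fold change 9.32, standard error 0.23, edgeR adjusted *p* = 3.9e-11). *warf-1*, of the ARF family of small GTPases, was at 338, 435 and 349 CPM in *lpin-1(RNAi)* animals, against 1.02, 1.23 and 1.22 CPM in *control(RNAi)* animals (log2 fold change 8.32, standard error 0.19, edgeR adjusted *p* = 3.1e-11), but its annotation overlaps *nep-16* on the other strand. *F33H12.7* was at 118.95, 86 and 128 CPM in *lpin-1(RNAi)* animals and 0.447, 0.105 and 0.341 CPM in *control(RNAi)* animals (log2 fold change 8.68, standard error 0.42, edgeR adjusted *p* = 8.7e-09). *F37C4.5*, with 1242, 1358 and 1168 CPM in *lpin-1(RNAi)* animals and 168, 178 and 178 CPM in *control(RNAi)* animals (log2 fold change 2.85, standard error 0.11, edgeR adjusted *p* = 2.0e-09), and *Y54G2A.18*, with 952, 1146 and 907 CPM in *lpin-1(RNAi)* animals and 147, 163 and 142 CPM in *control(RNAi)* animals (log2 fold change 2.73, standard error 0.12, edgeR adjusted *p* = 4.2e-09) were also among the 10 called genes with the largest rise in CPM. Neither is named. The groups did not overlap for any of these 5 genes, which for *Y41C4A.32*, *warf-1* and *F33H12.7* was a condition of their naming.

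The Δ9 desaturases and the desaturase that follows them made up the clearest change in the fat pathway. Of the 7 desaturase genes *fat-1* to *fat-7*, 4 were higher and 0 lower, with a median log2 fold change of 1.87 over the 7, against 0.03 over all tested genes. The 4 were the Δ9 desaturases and *fat-2*, the Δ12 enzyme that makes linoleic acid from their product. *fat-7* was at 1854, 1927 and 1788 CPM in *lpin-1(RNAi)* animals, against 131, 111 and 149 CPM in *control(RNAi)* animals (log2 fold change 3.83, standard error 0.13, edgeR adjusted *p* = 3.8e-10). *fat-5* was at 868, 872 and 867 CPM in *lpin-1(RNAi)* animals, against 184, 160.1 and 187 CPM in *control(RNAi)* animals (log2 fold change 2.30, standard error 0.12, edgeR adjusted *p* = 2.2e-08), *fat-6* at 1217, 1247 and 1329.9 CPM in *lpin-1(RNAi)* animals and 333, 293 and 415 CPM in *control(RNAi)* animals (log2 fold change 1.87, standard error 0.14, edgeR adjusted *p* = 5.0e-07), and *fat-2* at 2105, 2158 and 2251 CPM in *lpin-1(RNAi)* animals and 452, 479 and 534 CPM in *control(RNAi)* animals (log2 fold change 2.15, standard error 0.10, edgeR adjusted *p* = 8.1e-09). Within each of these groups the libraries lay close together, and the lowest *lpin-1(RNAi)* library was at least 2.93 times the highest control library for each of the 4 genes. The desaturases further along the polyunsaturated path moved less. *fat-3*, the Δ6 desaturase, was at 121, 109 and 143 CPM in *lpin-1(RNAi)* animals and 71.3, 85.3 and 101 CPM in *control(RNAi)* animals (log2 fold change 0.53, edgeR adjusted *p* = 0.021, and 0.24 without replicate 1), *fat-4*, the Δ5 desaturase, at 412, 402 and 438 CPM in *lpin-1(RNAi)* animals and 315, 317 and 354 CPM in *control(RNAi)* animals (0.34, edgeR adjusted *p* = 0.064), and *fat-1*, the ω-3 desaturase, at 639, 634 and 672 CPM in *lpin-1(RNAi)* animals and 584, 547 and 639.5 CPM in *control(RNAi)* animals (0.14, edgeR adjusted *p* = 0.26). None of these 3 was called. In a model with a term for the replicate number, a block, *fat-4* passed the adjusted *p* alone (edgeR adjusted *p* = 0.015), at a log2 fold change of 0.34.

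**Figure D1:**
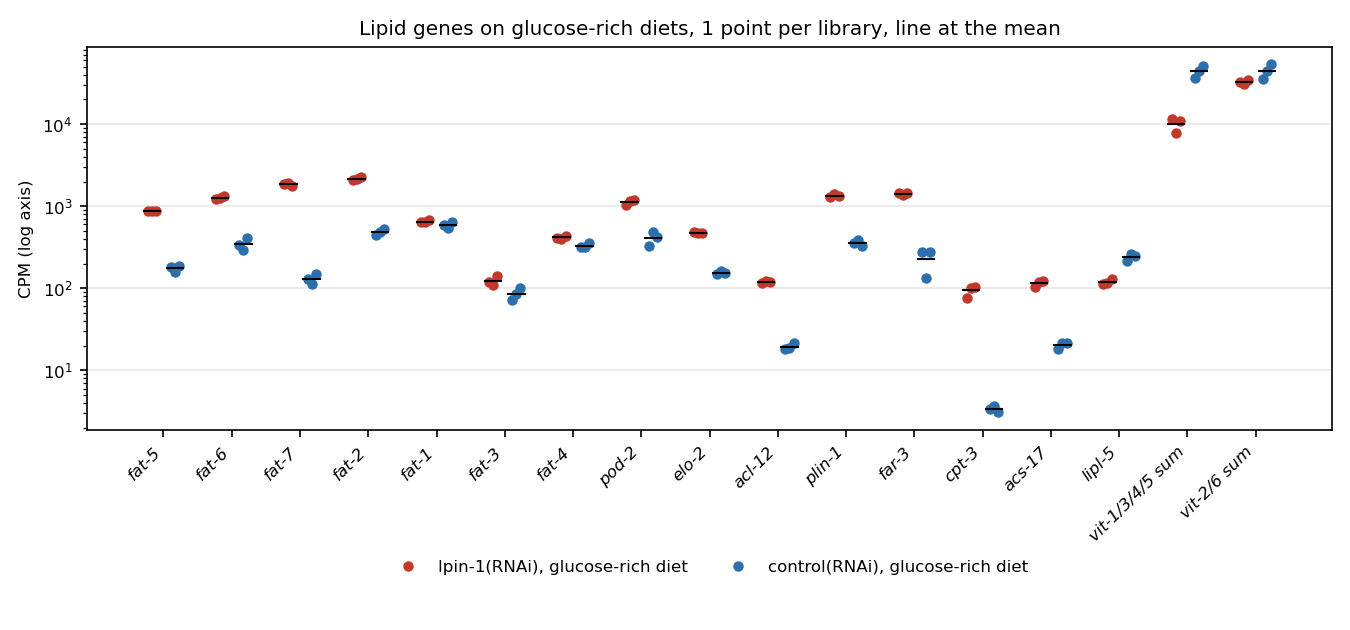
CPM of lipid genes in each library on glucose-rich diets, on a log axis; red points are the 3 *lpin-1(RNAi)* libraries, blue points the 3 *control(RNAi)* libraries, and lines the group means, with 2 groups of vitellogenins summed. The 4 called desaturases *fat-5*, *fat-6*, *fat-7* and *fat-2* lie well above the controls, *fat-1*, *fat-3* and *fat-4* close to them, and *lipl-5* and the summed *vit-1*, *vit-3*, *vit-4* and *vit-5* under them.

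Upstream of the desaturases, 2 of the 16 tested genes of fatty acid synthesis and elongation were higher (12.5%) and 0 lower (median 0.36). This count does not set the list apart from all tested genes, of which 8.04% were higher. By the adjusted *p* alone 8 were higher and 0 lower, against 16.0% and 15.8% of all tested genes. *pod-2*, acetyl-CoA carboxylase, which commits acetyl-CoA to fatty acid synthesis, was at 1028, 1144 and 1175 CPM in *lpin-1(RNAi)* animals, against 324, 484 and 421 CPM in *control(RNAi)* animals (log2 fold change 1.44, standard error 0.20, edgeR adjusted *p* = 1.1e-04). *elo-2*, which elongates palmitate, was at 483, 469 and 476 CPM in *lpin-1(RNAi)* animals and 151, 163 and 153 CPM in *control(RNAi)* animals (log2 fold change 1.61, standard error 0.07, edgeR adjusted *p* = 4.2e-09). *fasn-1*, the fatty acid synthase between them, was at 362, 364 and 353 CPM in *lpin-1(RNAi)* animals and 289, 328 and 279.6 CPM in *control(RNAi)* animals, a log2 fold change of 0.27 that did not pass (edgeR adjusted *p* = 0.48). Of 17 genes that regulate fat genes, *nhr-80* alone was called, at 21.1, 20.6 and 20.7 CPM in *lpin-1(RNAi)* animals and 8.3, 10.1 and 10.2 CPM in *control(RNAi)* animals (log2 fold change 1.12, standard error 0.13, edgeR adjusted *p* = 1.5e-05), and its log2 fold change was 0.95 without replicate 1. *nhr-49* was at 188, 182 and 188 CPM in *lpin-1(RNAi)* animals and 104, 101 and 100.3 CPM in *control(RNAi)* animals, a log2 fold change of 0.87 under the threshold for a call (edgeR adjusted *p* = 2.8e-05), *sbp-1* had a log2 fold change of 0.41 (edgeR adjusted *p* = 0.026, 0.19 without replicate 1 and 0.11 without the *control(RNAi)* library of replicate 2) and *mdt-15* of 0.11 (edgeR adjusted *p* = 0.65).

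Among 44 genes of triacylglycerol, phospholipid and sphingolipid synthesis, 7 were higher and 0 lower (median 0.21). *acl-12*, an acyltransferase-like gene, averaged 119.15 ± 3.89 CPM in *lpin-1(RNAi)* animals, against 19.4 ± 1.93 CPM in *control(RNAi)* animals (SD, n = 3 each; log2 fold change 2.62, standard error 0.10, edgeR adjusted *p* = 2.0e-09). *cgt-1*, a ceramide glucosyltransferase, was at 12.6, 13.3 and 10.8 CPM in *lpin-1(RNAi)* animals and 1.66, 0.805 and 2.1 CPM in *control(RNAi)* animals (log2 fold change 3.05, standard error 0.29, edgeR adjusted *p* = 3.5e-06), and *sptl-2* and *sptl-3*, subunits of serine palmitoyltransferase at the entry of sphingolipid synthesis, had log2 fold changes of 1.85 and 1.02, the second of them 0.92 without replicate 1. Of the phosphatidylcholine path from choline, the choline kinase gene *ckb-2* (2.02) and the CTP:phosphocholine transferase gene *pcyt-1* (1.22) were higher. *dgat-2*, which makes triacylglycerol from the product of lipin, was at 48.1, 55.8 and 49.8 CPM in *lpin-1(RNAi)* animals and 18.4, 22.4 and 25.5 CPM in *control(RNAi)* animals (log2 fold change 1.21, standard error 0.12, edgeR adjusted *p* = 5.7e-06). *plin-1*, the perilipin that coats lipid droplets, was at 1308, 1398 and 1321 CPM in *lpin-1(RNAi)* animals and 354, 383 and 329.8 CPM in *control(RNAi)* animals (log2 fold change 1.92, standard error 0.16, edgeR adjusted *p* = 1.1e-06), among the 10 called genes with the largest rise in CPM.

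Genes that release or burn fat were called in both directions. Of 19 lipase genes, 3 were higher and 5 lower (3 lower without replicate 2), and the lower ones included 4 of the lysosomal lipase genes. *lipl-5* was at 113, 116 and 129 CPM in *lpin-1(RNAi)* animals, against 218, 260.4 and 247 CPM in *control(RNAi)* animals (log2 fold change −1.02, standard error 0.10, edgeR adjusted *p* = 3.4e-06), close to the threshold, with a log2 fold change of −0.94 without replicate 2 and −0.82 with libraries scaled by their totals. *lipl-1*, *lipl-2* and *lipl-3* had log2 fold changes of −2.71, −1.55 and −3.87, and the call of *lipl-1* was lost without replicate 2 (−1.95, edgeR adjusted *p* = 0.16). The 3 were at mean levels of 0.0951, 0.956 and 0.111 CPM in *lpin-1(RNAi)* animals, against 0.605, 2.77 and 1.59 CPM in *control(RNAi)* animals, so they rest on few reads. The higher ones were *lips-10* (87.5, 92.6 and 94.2 CPM in *lpin-1(RNAi)* animals and 21.2, 28.1 and 33.4 CPM in *control(RNAi)* animals, log2 fold change 1.73, standard error 0.14, edgeR adjusted *p* = 5.9e-07) and the 2 genes like CGI-58, an activator of the droplet lipase, *abhd-5.1* (1.36) and *abhd-5.2* (1.16). In mitochondrial fatty acid oxidation, 6 of 54 genes were higher (11.1%) and 1 lower (1.85%), with a median of 0.34. Over all tested genes the shares were 8.04% and 4.21%, so these counts of calls do not set the list apart. By the adjusted *p* alone 18 of the 54 were higher and 15 lower, against 16.0% and 15.8% of all tested genes. *cpt-3*, of the carnitine palmitoyltransferase family that takes fatty acids into mitochondria, was at 76.8, 101 and 105 CPM in *lpin-1(RNAi)* animals and 3.39, 3.68 and 3.07 CPM in *control(RNAi)* animals (log2 fold change 4.79, standard error 0.22, edgeR adjusted *p* = 4.4e-09), and *acs-17*, an acyl-CoA synthetase, at 104, 118 and 123 CPM in *lpin-1(RNAi)* animals and 18.1, 21.5 and 21.4 CPM in *control(RNAi)* animals (log2 fold change 2.49, standard error 0.15, edgeR adjusted *p* = 6.3e-08). The lower one, *acdh-2*, an acyl-CoA dehydrogenase, was at 5.95, 1.77 and 9.58 CPM in *lpin-1(RNAi)* animals and 19.3, 14.1 and 43.9 CPM in *control(RNAi)* animals (log2 fold change −2.17, standard error 0.49, edgeR adjusted *p* = 0.0044). Of 23 peroxisomal genes 2 were higher and 3 lower: *pmp-4*, of the peroxisomal ABC transporters, had a log2 fold change of 1.94, while *acox-1.2* and *acox-1.3*, acyl-CoA oxidases of the pathway that also makes ascaroside pheromones, had −2.09 and −1.96. The fatty acid and retinol binding gene *far-3* was at 1452, 1369.5 and 1434 CPM in *lpin-1(RNAi)* animals and 275, 132 and 273 CPM in *control(RNAi)* animals (log2 fold change 2.65, standard error 0.28, edgeR adjusted *p* = 1.0e-05), and *far-5*, which overlaps it on the other strand, was at 2.55, 2.68 and 2.57 CPM in *lpin-1(RNAi)* animals and 9.96, 9.31 and 11.7 CPM in *control(RNAi)* animals (log2 fold change −1.99, standard error 0.23, edgeR adjusted *p* = 2.3e-05).

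Yolk transcripts fell unevenly. The 6 vitellogenin genes encode the yolk lipoproteins. *vit-1*, *vit-3*, *vit-4* and *vit-5* had fractional counts in all 12 libraries, so some of their reads were divided with similar genes. The counts do not show which genes shared these reads, so values of single genes, and of the sum of these 4, may be inexact. The sum of these 4 was 11623, 7909.5 and 10801 CPM in *lpin-1(RNAi)* animals, against 36147, 44504 and 51244 CPM in *control(RNAi)* animals, and the groups did not overlap (log2 fold change −2.12, standard error 0.24, edgeR adjusted *p* = 1.6e-05, from a fit added after the data were seen). Singly, *vit-1* (−3.31) and *vit-3* (−2.68) had larger falls than *vit-5* (−1.79) and *vit-4* (−1.66). *vit-2* was at 16582, 15155 and 17510 CPM in *lpin-1(RNAi)* animals and 17647, 21627 and 26244 CPM in *control(RNAi)* animals and *vit-6* at 16288, 15363 and 17405 CPM in *lpin-1(RNAi)* animals and 17490, 23190 and 27270 CPM in *control(RNAi)* animals, and neither was called (edgeR adjusted *p* = 0.11 and 0.12), though *vit-6* passed the adjusted *p* alone in the fit blocked by replicate number (log2 fold change −0.44, edgeR adjusted *p* = 0.045). All 6 together were at 44492, 38427 and 45716 CPM in *lpin-1(RNAi)* animals and 71283, 89321 and 104760 CPM in *control(RNAi)* animals. *rme-2*, the oocyte receptor of yolk, had a log2 fold change of −0.11 (edgeR adjusted *p* = 0.61), and *pqm-1*, a transcription factor of the intestine, was higher (33.4, 33.7 and 39.1 CPM in *lpin-1(RNAi)* animals and 16.7, 12.4 and 16 CPM in *control(RNAi)* animals, log2 fold change 1.24, standard error 0.12, edgeR adjusted *p* = 3.5e-06). Animals were whole, so fewer cells of a type and less RNA per cell cannot be told apart for these or any other genes described here.

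Genes of glycolysis and the Krebs cycle moved by small amounts. None of 21 glycolysis genes and none of 23 Krebs cycle genes was called by edgeR's quasi-likelihood test, or by DESeq2. Over all tested genes edgeR called 8.04% higher and 4.21% lower. At an unadjusted *p* under 0.05, 2 glycolysis genes were higher and 5 lower, and 10 Krebs cycle genes were lower. With the replicate block 1 glycolysis gene was called higher. By the adjusted *p* alone, 1 glycolysis gene was higher and 3 lower, and 0 Krebs cycle genes were higher and 8 lower, against 16.0% and 15.8% of all tested genes. Of the 23 Krebs cycle genes 18 were negative (median −0.18). With libraries scaled by their totals that median was 0.01, and 2 genes passed the adjusted *p* in each direction. *aldo-2*, an aldolase, was at 932, 949 and 909 CPM in *lpin-1(RNAi)* animals and 798, 838 and 746 CPM in *control(RNAi)* animals (log2 fold change 0.23, edgeR adjusted *p* = 0.11). Of the glyoxylate cycle, which turns fat into sugar, *icl-1* was higher (484, 505 and 556 CPM in *lpin-1(RNAi)* animals and 199, 230.3 and 246 CPM in *control(RNAi)* animals, log2 fold change 1.19, standard error 0.20, edgeR adjusted *p* = 5.0e-04). *gpdh-1*, which makes glycerol under osmotic stress, was lower (16.4, 15.4 and 17.3 CPM in *lpin-1(RNAi)* animals and 51.3, 39.3 and 52.4 CPM in *control(RNAi)* animals, log2 fold change −1.54, standard error 0.17, edgeR adjusted *p* = 1.5e-05), as was the aquaporin gene *aqp-8* (−1.80). The cystathionine γ-lyase genes *cth-1* (−2.01) and *cth-2* (−1.60), which make cysteine from the methionine cycle, were lower, and *sams-1*, which makes the methyl donor S-adenosylmethionine, was at 247, 191 and 225 CPM in *lpin-1(RNAi)* animals and 388, 415 and 375 CPM in *control(RNAi)* animals, a log2 fold change of −0.83 under the threshold for a call (edgeR adjusted *p* = 7.4e-05). The SWEET sugar transporter genes *swt-6* (54.1, 54.6 and 50.6 CPM in *lpin-1(RNAi)* animals and 9.45, 4.1 and 7.51 CPM in *control(RNAi)* animals, log2 fold change 2.95, standard error 0.32, edgeR adjusted *p* = 9.6e-06) and *swt-1* (2.12) were higher, and the amino acid transporter genes *aat-6* (−2.37) and *aat-7* (−3.47) lower.

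Small heat shock genes were higher, and chaperone genes of the mitochondria were not called. Of 20 tested heat shock genes 8 were higher and 0 lower (median 0.88), among them the small heat shock proteins of the *hsp-16* group. The *hsp-16.1* copies, 2 genes of near-identical sequence, summed to 142, 164 and 143 CPM in *lpin-1(RNAi)* animals, against 6.83, 10.9 and 13.3 CPM in *control(RNAi)* animals (log2 fold change 3.84, standard error 0.25, edgeR adjusted *p* = 1.0e-07), and the *hsp-16.48* copies to 101, 106 and 92.7 CPM in *lpin-1(RNAi)* animals and 6.52, 9.1 and 12.9 CPM in *control(RNAi)* animals (log2 fold change 3.39, standard error 0.20, edgeR adjusted *p* = 4.1e-08), both from the fit with copies summed. The 8 calls count these copies singly, so they hold fewer than 8 independent genes. *hsp-43* had 398, 536 and 409 CPM in *lpin-1(RNAi)* animals and 100.4, 95.6 and 128 CPM in *control(RNAi)* animals (log2 fold change 2.05, standard error 0.14, edgeR adjusted *p* = 1.2e-07) and *hsp-17* 72.1, 60.8 and 59.8 CPM in *lpin-1(RNAi)* animals and 17.2, 14.3 and 20.9 CPM in *control(RNAi)* animals (log2 fold change 1.88, standard error 0.16, edgeR adjusted *p* = 1.5e-06). The constitutive *hsp-1* was at 3641, 3392 and 3393 CPM in *lpin-1(RNAi)* animals and 4221, 4518 and 4202 CPM in *control(RNAi)* animals and was not called (log2 fold change −0.31, edgeR adjusted *p* = 0.077). *hsp-6*, the mitochondrial chaperone read as a marker of mitochondrial stress, was at 765, 742 and 673 CPM in *lpin-1(RNAi)* animals and 847, 939 and 754 CPM in *control(RNAi)* animals (log2 fold change −0.22, edgeR adjusted *p* = 0.37), and none of the 12 tested genes of the mitochondrial unfolded protein response was called by edgeR or DESeq2 (at an unadjusted *p* under 0.05, 2 were higher and 4 lower, and by the adjusted *p* alone 1 and 4). *hsp-4*, the BiP chaperone of the endoplasmic reticulum, was at 644, 617 and 663 CPM in *lpin-1(RNAi)* animals and 439, 449.7 and 387 CPM in *control(RNAi)* animals, a log2 fold change of 0.59 that passed the adjusted *p* (edgeR adjusted *p* = 0.008, and 0.15 without replicate 3) but not the fold threshold. Of the 70 genes of the endoplasmic reticulum unfolded protein response list 7 were higher (10.0%) and 1 lower (1.43%), all *pqn* or *abu* genes, which encode proteins rich in glutamine and asparagine, and the median was 0.30. Over all tested genes the shares were 8.04% and 4.21%, so the 7 higher calls do not set the list apart. By the adjusted *p* alone 27 were higher and 4 lower, against 16.0% and 15.8% of all tested genes. The 7 became 4 without replicate 1, 3 without replicate 3 and 13 with libraries scaled by their totals. *sqst-1*, the p62 autophagy receptor, was at 458, 508 and 476 CPM in *lpin-1(RNAi)* animals and 42, 36.9 and 41.8 CPM in *control(RNAi)* animals (log2 fold change 3.58, standard error 0.15, edgeR adjusted *p* = 2.3e-09). The *numr-1* copies, known from the response to metals, summed to 96.9, 95.7 and 124 CPM in *lpin-1(RNAi)* animals and 3.58, 2.52 and 5.07 CPM in *control(RNAi)* animals (log2 fold change 4.85, standard error 0.26, edgeR adjusted *p* = 1.7e-08).

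**Figure D2:**
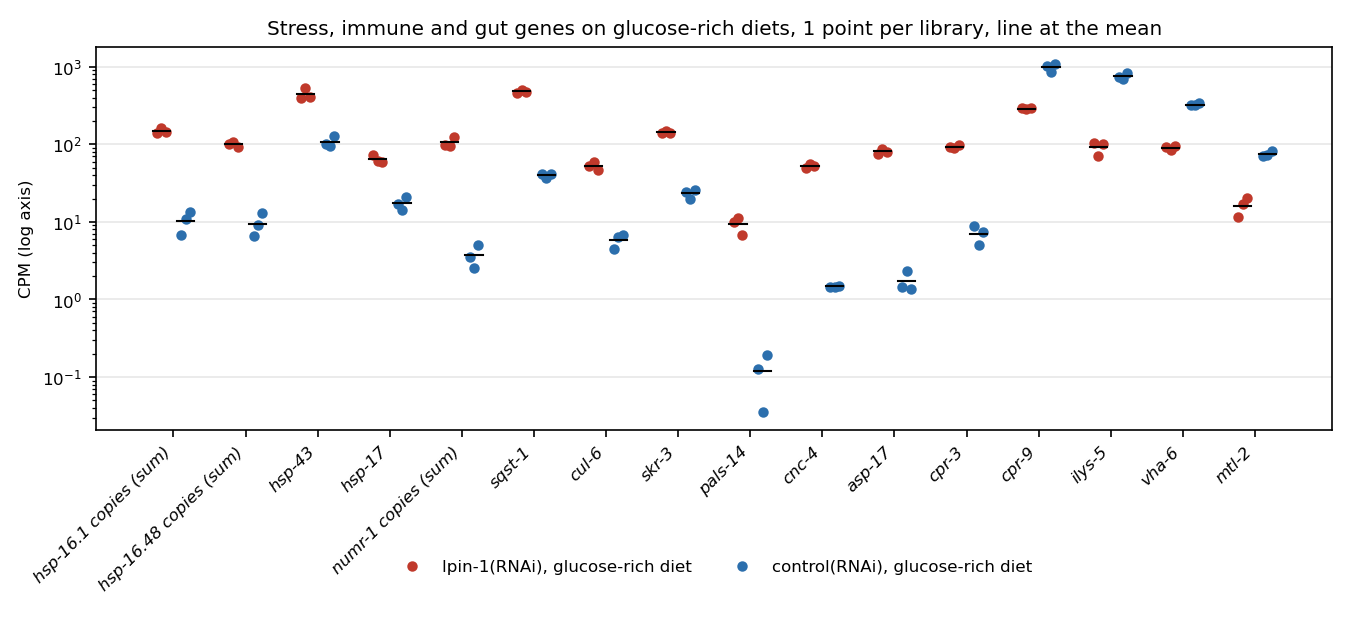
CPM of stress, immune and gut genes in each library on glucose-rich diets, on a log axis, with red points for *lpin-1(RNAi)* and blue points for *control(RNAi)* libraries and lines at the group means; copies of near-identical sequence are summed. The genes drawn lie higher in *lpin-1(RNAi)* animals from the *hsp-16.1* copies to *cpr-3* and lower from *cpr-9* to *mtl-2*. The groups do not overlap for any of them, which was a condition of the rule that named several of them.

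Immune and stress families split by kind. In the intracellular pathogen response, a set of genes first defined by infection with microsporidia and virus, 15 of 28 tested genes were higher and 2 lower (median 1.47). *cul-6*, a cullin, was at 51.8, 58.5 and 47.2 CPM in *lpin-1(RNAi)* animals, against 4.54, 6.34 and 6.87 CPM in *control(RNAi)* animals (log2 fold change 3.13, standard error 0.16, edgeR adjusted *p* = 1.5e-08), and *skr-3*, which joins it in a ubiquitin ligase, was at 141, 149.6 and 139 CPM in *lpin-1(RNAi)* animals and 24.7, 19.9 and 25.7 CPM in *control(RNAi)* animals (log2 fold change 2.62, standard error 0.14, edgeR adjusted *p* = 1.7e-08). *pals-32* had 206, 236 and 199 counts in *lpin-1(RNAi)* animals, against 0, 2 and 1 in *control(RNAi)* animals, at least 55.9-fold, and *pals-14* was at 9.96, 11.3 and 6.77 CPM in *lpin-1(RNAi)* animals and 0.128, 0.035 and 0.195 CPM in *control(RNAi)* animals (log2 fold change 6.36, standard error 0.38, edgeR adjusted *p* = 4.4e-08). *pals-22* and *pals-25*, a repressor and an activator of this response, were not called (log2 fold changes 0.15 and 0.35, edgeR adjusted *p* = 0.45 and 0.078). Of 36 antimicrobial peptide genes of the epidermis 15 were higher and 1 lower (median 0.61), led by *fipr-26* (at least 25.5-fold) and *cnc-4*, a caenacin at 49.5, 55.7 and 53.2 CPM in *lpin-1(RNAi)* animals and 1.47, 1.44 and 1.51 CPM in *control(RNAi)* animals (log2 fold change 5.16, standard error 0.22, edgeR adjusted *p* = 3.5e-09).

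Saposin-like and lysozyme genes, whose products attack bacterial membranes and walls in the gut, were divided, with 8 of 35 higher and 8 lower. *spp-9* had 801, 634 and 575 counts in *lpin-1(RNAi)* animals, against 0, 2 and 2 in *control(RNAi)* animals, at least 177-fold higher, and *spp-12* had 395, 323 and 349 counts, against 0, 1 and 1, at least 94.2-fold. *spp-4* was at 2.34, 1.94 and 1.83 CPM in *lpin-1(RNAi)* animals and 22.7, 25.7 and 35.9 CPM in *control(RNAi)* animals (log2 fold change −3.78, standard error 0.22, edgeR adjusted *p* = 4.2e-08), and the lysozyme gene *ilys-5* at 103, 69.9 and 101 CPM in *lpin-1(RNAi)* animals and 739.5, 689.9 and 832 CPM in *control(RNAi)* animals (log2 fold change −3.04, standard error 0.18, edgeR adjusted *p* = 4.0e-08). C-type lectins, secreted or membrane proteins with sugar-binding domains, were mostly lower among the called: 35 of 104 were lower and 9 higher (median −0.28). The most lowered that met the rule for naming was *clec-227* (0.167, 0.102 and 0.163 CPM in *lpin-1(RNAi)* animals and 3.96, 6.9 and 5.22 CPM in *control(RNAi)* animals, log2 fold change −5.20, standard error 0.36, edgeR adjusted *p* = 1.5e-07), while *clec-87*, the lectin gene with the highest CPM, was at 1433, 1476 and 1373 CPM in *lpin-1(RNAi)* animals and 1472, 1457 and 1232 CPM in *control(RNAi)* animals (log2 fold change 0.04, edgeR adjusted *p* = 0.82). Of 36 genes of p38 and other infection responses 9 were higher and 6 lower, with *cpr-3*, a cathepsin B-like protease, at 92.4, 90.5 and 97.4 CPM in *lpin-1(RNAi)* animals and 8.75, 5.01 and 7.46 CPM in *control(RNAi)* animals (log2 fold change 3.75, standard error 0.20, edgeR adjusted *p* = 1.8e-08) and *cpr-9*, of the same family, at 291, 282 and 294 CPM in *lpin-1(RNAi)* animals and 1037, 854 and 1073 CPM in *control(RNAi)* animals (log2 fold change −1.77, standard error 0.11, edgeR adjusted *p* = 9.6e-08).

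**Figure D3:**
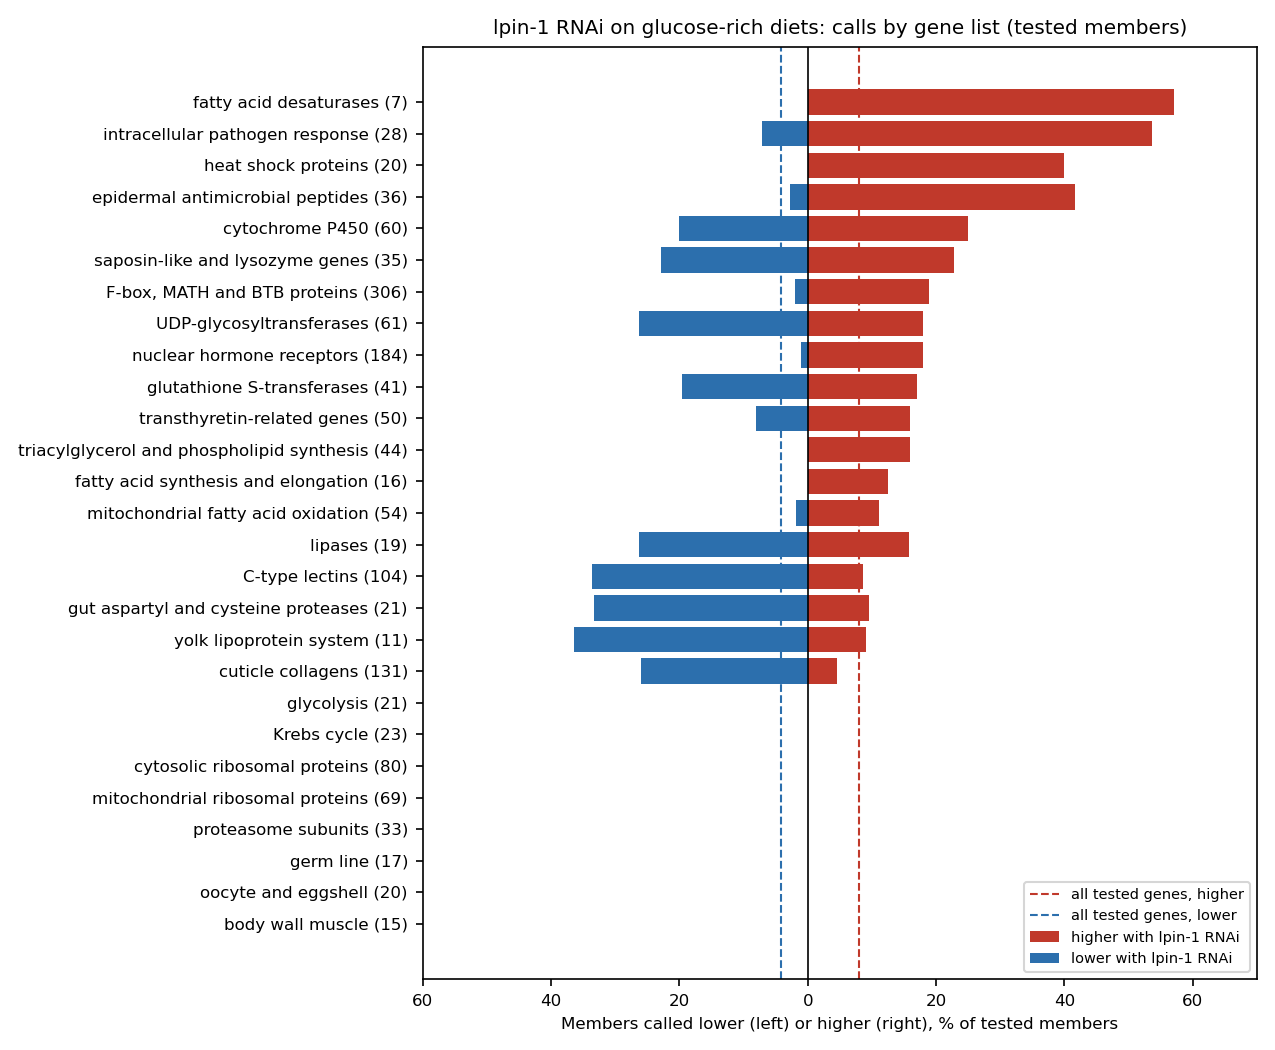
Share of the tested members of 27 gene lists called higher (red, to the right) or lower (blue, to the left) by *lpin-1* RNAi with glucose, with the number tested in parentheses. Dashed lines mark the shares over all tested genes, 8.04% higher and 4.21% lower. Desaturases (57.1% higher), the intracellular pathogen response (53.6%) and antimicrobial peptides (41.7%) reach farthest right, and C-type lectins (33.7% lower) and the yolk system (36.4%) farthest left.

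Enzymes that modify foreign and lipid molecules changed in both directions. Of 60 cytochrome P450 genes 15 were higher and 12 lower, of 61 UDP-glycosyltransferase genes 11 and 16, and of 41 glutathione S-transferase genes 7 and 8. Among the P450 genes *cyp-13A7* was at 7.62, 7.58 and 5.75 CPM in *lpin-1(RNAi)* animals and 0.0639, 0.14 and 0 CPM in *control(RNAi)* animals (log2 fold change 6.42, standard error 0.38, edgeR adjusted *p* = 4.4e-08) and *cyp-35A5* at 0.293, 1.12 and 0.978 CPM in *lpin-1(RNAi)* animals and 8.05, 11.6 and 14.6 CPM in *control(RNAi)* animals (log2 fold change −3.81, standard error 0.41, edgeR adjusted *p* = 9.0e-06). *ugt-22*, the UDP-glycosyltransferase gene with the highest CPM, was at 52.3, 60.9 and 67.3 CPM in *lpin-1(RNAi)* animals and 208, 266 and 278 CPM in *control(RNAi)* animals (log2 fold change −2.06, standard error 0.16, edgeR adjusted *p* = 4.3e-07), *ugt-30* had a log2 fold change of −4.70, and *ugt-66* of 3.14. *gst-24* rose (2.61) where *gst-10* (−2.17) and *gst-4*, the usual reporter of the SKN-1 stress response, fell (31.3, 26.9 and 26.7 CPM in *lpin-1(RNAi)* animals and 70.2, 70.6 and 68.9 CPM in *control(RNAi)* animals, log2 fold change −1.30, standard error 0.10, edgeR adjusted *p* = 5.2e-07). The metallothionein genes moved apart: *mtl-2* was at 11.5, 16.9 and 20.1 CPM in *lpin-1(RNAi)* animals and 70.4, 72.4 and 83.2 CPM in *control(RNAi)* animals (log2 fold change −2.22, standard error 0.20, edgeR adjusted *p* = 2.1e-06), and *mtl-1* at 1.09, 1.8 and 2.53 CPM in *lpin-1(RNAi)* animals and 0.383, 0.595 and 0.585 CPM in *control(RNAi)* animals (log2 fold change 1.75, standard error 0.37, edgeR adjusted *p* = 0.0023). The call of *mtl-1* was lost without replicate 3 (edgeR adjusted *p* = 0.055).

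Several genes of the gut lumen and the intestinal surface were lower. Of 21 aspartyl and cysteine protease genes 7 were lower and 2 higher (median −0.37). *asp-17* was the exception by size, at 74.4, 87.7 and 80.6 CPM in *lpin-1(RNAi)* animals, against 1.47, 2.31 and 1.36 CPM in *control(RNAi)* animals (log2 fold change 5.51, standard error 0.21, edgeR adjusted *p* = 1.5e-09), while *asp-1* was at 427, 384 and 478 CPM in *lpin-1(RNAi)* animals and 1006, 1132 and 1327 CPM in *control(RNAi)* animals (log2 fold change −1.43, standard error 0.14, edgeR adjusted *p* = 3.6e-06) and *cpr-4* at 92.4, 121.8 and 161 CPM in *lpin-1(RNAi)* animals and 381, 321 and 526 CPM in *control(RNAi)* animals (log2 fold change −1.71, standard error 0.21, edgeR adjusted *p* = 2.8e-05). *vha-6*, the V-ATPase subunit of the apical intestinal membrane, was at 93.2, 85.2 and 94.7 CPM in *lpin-1(RNAi)* animals and 322, 321 and 337 CPM in *control(RNAi)* animals (log2 fold change −1.84, standard error 0.08, edgeR adjusted *p* = 3.9e-09), with nearly equal values inside each group. *ifb-2*, the intermediate filament of the intestinal brush border, had a log2 fold change of −1.43 and *pept-1*, the main peptide transporter, of −0.68 (edgeR adjusted *p* = 6.4e-04), while *elt-2*, the intestinal GATA factor, was at 30.2, 25.4 and 26.7 CPM in *lpin-1(RNAi)* animals and 15.8, 12.5 and 17.7 CPM in *control(RNAi)* animals, a log2 fold change of 0.84 in the other direction (edgeR adjusted *p* = 2.0e-04).

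Among the largest falls were those of the *pud* genes on chromosome V, which encode proteins known to be raised in long-lived *daf-2* mutants. All 6 tested *pud* genes were lower. Reads were divided for the near-identical *pud-1* copies and for the *pud-2* copies, while *pud-3* and *pud-4* had no fractional counts. The *pud-1* copies summed to 15.2, 7.88 and 10.0 CPM in *lpin-1(RNAi)* animals, against 772, 1102 and 679 CPM in *control(RNAi)* animals (log2 fold change −6.27, standard error 0.37, edgeR adjusted *p* = 4.4e-08), the *pud-2* copies to 13.1, 6.66 and 8.68 CPM in *lpin-1(RNAi)* animals and 652, 923 and 564 CPM in *control(RNAi)* animals (log2 fold change −6.24, standard error 0.42, edgeR adjusted *p* = 1.2e-07). *pud-3* was at 2.6, 1.16 and 1.26 CPM in *lpin-1(RNAi)* animals and 149, 263 and 100.2 CPM in *control(RNAi)* animals (log2 fold change −6.70, standard error 0.55, edgeR adjusted *p* = 8.9e-07) and *pud-4* at 0.754, 0.306 and 0.367 CPM in *lpin-1(RNAi)* animals and 56.1, 88.7 and 36.6 CPM in *control(RNAi)* animals (log2 fold change −7.01, standard error 0.59, edgeR adjusted *p* = 9.9e-07). The other large falls were in genes of low level such as *F42A10.7* (0.586, 0.238 and 0.611 CPM in *lpin-1(RNAi)* animals and 26.4, 20.9 and 29.6 CPM in *control(RNAi)* animals, log2 fold change −5.77, standard error 0.27, edgeR adjusted *p* = 7.0e-09) and *oac-32* (0.0419, 0.068 and 0.163 CPM in *lpin-1(RNAi)* animals and 4.85, 3.01 and 3.27 CPM in *control(RNAi)* animals, log2 fold change −5.27, standard error 0.45, edgeR adjusted *p* = 1.1e-06). WBGene00021233, annotated as a pseudogene, had 0 counts in every *lpin-1(RNAi)* library and 12, 13 and 15 in *control(RNAi)* libraries, at least 5.58-fold lower in *lpin-1(RNAi)* animals.

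In the nuclear hormone receptor and F-box lists more genes were called higher than lower. Of 184 tested nuclear hormone receptor genes, ligand-gated transcription factors that are numerous in worms, 33 were higher and 2 lower (median 0.35), and *nhr-206* (3.89, 4.72 and 4.73 CPM in *lpin-1(RNAi)* animals and 0.319, 0.595 and 0.536 CPM in *control(RNAi)* animals, log2 fold change 3.14, standard error 0.27, edgeR adjusted *p* = 1.1e-06) led them. Of 306 genes of the F-box, MATH and BTB families, substrate adaptors of ubiquitin ligases, 58 were higher and 6 lower, but their median was 0.02, and *fbxa-30* (at least 33.5-fold) and *fbxa-158* (at least 36.2-fold) rose from near-silent levels. Of these calls 43 were *fbxa* genes, of 110 tested, a group singled out after the values were seen. Of 54 histone genes 12 were higher and 2 lower, but several of these are copies that share the same counts, and the number higher was 5 without replicate 3 and 6 without replicate 2. *nlp-24*, a neuropeptide gene, fell (36.7, 18.1 and 27.3 CPM in *lpin-1(RNAi)* animals and 186, 160.2 and 205 CPM in *control(RNAi)* animals, log2 fold change −2.75, standard error 0.23, edgeR adjusted *p* = 9.4e-07), and *ttr-26*, of the transthyretin-related family, rose (63.7, 82.7 and 77 CPM in *lpin-1(RNAi)* animals and 9.07, 5.74 and 8.09 CPM in *control(RNAi)* animals, log2 fold change 3.31, standard error 0.18, edgeR adjusted *p* = 2.8e-08). Over all 120 insulin-like and neuropeptide genes 9 were higher (5 without replicate 1, 17 with libraries scaled by their totals) and 3 lower (median 0.25). These were 7.5% and 2.5%, not above the 8.04% and 4.21% of all tested genes. Over all 50 transthyretin-related genes 8 were higher (16.0%) and 4 lower (8.0%), with a median of 0.19.

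Cuticle collagens held many of the lower genes of high level. Of 131 tested collagen genes 34 were lower and 6 higher (3 higher without replicate 1 or 3, and 11 without replicate 2), with a median of −0.05 over all. *col-124* was at 906, 631 and 664 CPM in *lpin-1(RNAi)* animals, against 3071, 3618 and 2969.7 CPM in *control(RNAi)* animals (log2 fold change −2.13, standard error 0.20, edgeR adjusted *p* = 2.5e-06), *col-101* at 522, 264 and 305 CPM in *lpin-1(RNAi)* animals and 2005, 1959.7 and 1979 CPM in *control(RNAi)* animals (log2 fold change −2.45, standard error 0.20, edgeR adjusted *p* = 8.9e-07), and *col-181*, the collagen gene with the highest CPM, at 1838, 1467 and 1556 CPM in *lpin-1(RNAi)* animals and 4099, 4422 and 3986 CPM in *control(RNAi)* animals (log2 fold change −1.36, standard error 0.13, edgeR adjusted *p* = 2.4e-06). *col-19*, which is switched on in the adult hypodermis, was at 1069, 810.4 and 884 CPM in *lpin-1(RNAi)* animals and 2124, 2626 and 2239 CPM in *control(RNAi)* animals (log2 fold change −1.34, standard error 0.14, edgeR adjusted *p* = 9.2e-06). *col-122* and *col-20*, also of high CPM, had log2 fold changes of −1.29 and −1.42. In *col-124*, *col-101*, *col-181* and *col-19* the first *lpin-1(RNAi)* library was the highest of its group. *col-119* and *col-140* lay near the threshold: their log2 fold changes of −1.02 and −1.17 were −0.82 and −0.98 when libraries were scaled by their totals. Of 103 molting and hedgehog-related genes 14 were higher, 7 of 102 without replicate 1, and 14 lower, with *ptr-8*, of the patched-related family, at 123, 136 and 133 CPM in *lpin-1(RNAi)* animals and 20.4, 21.4 and 23.1 CPM in *control(RNAi)* animals (log2 fold change 2.60, standard error 0.11, edgeR adjusted *p* = 3.6e-09) and the astacin protease gene *nas-3* at 0.754, 0.102 and 0.408 CPM in *lpin-1(RNAi)* animals and 14.1, 7.77 and 12.4 CPM in *control(RNAi)* animals (log2 fold change −4.79, standard error 0.56, edgeR adjusted *p* = 2.2e-05).

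Several sets of genes of protein and energy production shifted together by amounts too small for a call. Of 80 cytosolic ribosomal protein genes none was called by edgeR or DESeq2, but all 80 had a negative log2 fold change, 79 had an unadjusted *p* under 0.05, 78 passed the adjusted *p* alone, against 15.8% of all tested genes that did so in that direction, and the median was −0.63. Their summed level was between 79753 and 86449 CPM in *lpin-1(RNAi)* libraries and between 124904 and 133695 CPM in *control(RNAi)* libraries. *rpl-3*, the one with the highest CPM, was at 3505, 3260.1 and 3326 CPM in *lpin-1(RNAi)* animals, against 4748, 4861 and 4667 CPM in *control(RNAi)* animals (log2 fold change −0.50, standard error 0.10, edgeR adjusted *p* = 0.0016). All 69 mitochondrial ribosomal protein genes were negative (56 past the adjusted *p*, median −0.43), as were 43 of 44 nuclear genes of the respiratory chain (33 past it, median −0.38). With libraries scaled by their totals the medians were −0.43, −0.23 and −0.19, and 75, 14 and 14 genes passed, so that the direction of the cytosolic set was kept by 79 of its 80 members and most of the single-gene support of the other sets was lost. The 33 proteasome genes had a median of −0.07, which was 0.13 with that scaling. Of 14 tested genes of the mitochondrial genome, found by chromosome, 12 were negative and 2 passed the adjusted *p* (median −0.44).

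**Figure D4:**
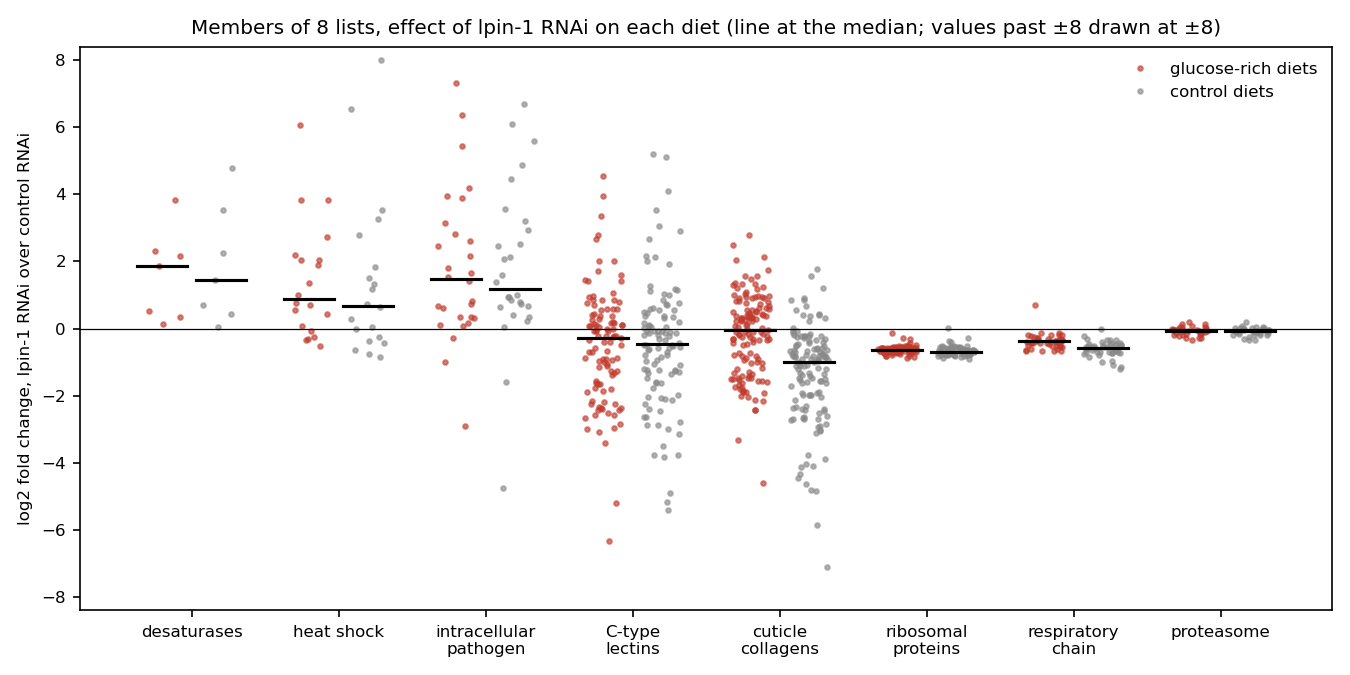
Log2 fold change of *lpin-1(RNAi)* over *control(RNAi)* for each tested member of 8 gene lists, in red on glucose-rich diets and in grey on control diets, with lines at the medians. The ribosomal protein genes form a narrow band under 0 on both diets (medians −0.63 with glucose and −0.70 without), while the collagens are spread wide with a median of −0.05 with glucose and −1.01 without.

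Marker genes of tissues, summed over each list and library, moved alongside several of these groups. The 14 tested intestinal markers, which include *vit-2* and *vit-5*, summed to between 20500 and 24618 CPM in *lpin-1(RNAi)* libraries and between 32840 and 47234 in *control(RNAi)* libraries, with 5 lower and 1 higher. By sign 10 were negative and 4 positive (median −0.78), and *vit-2* made up most of the *lpin-1(RNAi)* sums. The 13 hypodermal markers, 2 of them lower, both collagens, summed to between 2430 and 2917 CPM, against between 4799 and 5776 in controls. By sign 7 were negative and 6 positive (median −0.10), so the lower sum does not describe the list as a whole. The 18 neuronal markers, whose *snb-1*, synaptobrevin, was at 220.4, 261 and 229 CPM in *lpin-1(RNAi)* animals and 126, 127 and 111 CPM in *control(RNAi)* animals (log2 fold change 0.97, edgeR adjusted *p* = 4.5e-06), summed to between 554 and 617 CPM, against between 368 and 396, and the 10 pharyngeal markers, all positive, to between 185 and 262, against between 108 and 155. Of the neuronal markers 12 were positive and 6 negative (median 0.23). None of the germ line (17), oocyte (20), embryo (12), coelomocyte (3) or body wall muscle (15) markers was called by edgeR or DESeq2. At an unadjusted *p* under 0.05, 7 germ line, 2 oocyte, 3 embryo, 1 coelomocyte and 2 muscle markers were lower and 1 embryo and 3 muscle markers higher, and by the adjusted *p* alone 7 germ line, 2 embryo and 1 coelomocyte markers were lower and 1 muscle and 1 embryo marker higher. Sperm genes summed to between 209 and 378 CPM in *lpin-1(RNAi)* animals and between 108 and 316 in *control(RNAi)* animals, with replicate 2 the highest in each group, and 2 of 52 were called, but 20 were when replicate 2 was left out. The part of these tissue differences in the yolk, collagen, protease or neuronal results was not tested.

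Most of the response was shared with control diets. There *lpin-1* RNAi raised 1469 genes (10.0%) and lowered 825 (5.61%) by the same test, and the libraries of the 2 comparisons are separate. Of the genes called on glucose-rich diets, 966 of 1181 higher and 507 of 618 lower genes were also called in that direction on control diets, which is 65.8% and 61.5% of the calls made there. The difference between the effects, tested itself, was called for 174 genes, 0.810% of those tested being higher and 0.374%, or 55 genes, lower. This count rests on few libraries: it was 1 higher and 2 lower without replicate 3, 15 and 7 without replicate 1, and 154 and 104 when the replicate number was added to the model. A total of 324 genes were called on glucose-rich and not on control diets, and the difference passed the adjusted *p* for 24 of them.

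The collagens made up the largest group among these differences. Of the genes with a higher effect on glucose 21 were collagens, and all but 12 of the 131 tested collagens had a higher log2 fold change on glucose-rich than on control diets, as did 55.1% of all tested genes. For *col-124* the log2 fold change was −2.13 with glucose and −4.63 without (difference 2.49, standard error 0.27, edgeR adjusted *p* = 6.5e-04). Its levels on control diets were 130.0, 232 and 165 CPM in *lpin-1(RNAi)* animals, against 4423, 4725 and 3866 CPM in *control(RNAi)* animals. Every *lpin-1(RNAi)* library with glucose lay above every *lpin-1(RNAi)* library without it, and for the controls the order was the reverse. The same held for *sams-1*, at 93.8, 121.7 and 105 CPM in *lpin-1(RNAi)* animals and 436, 458 and 439 CPM in *control(RNAi)* animals on control diets, a log2 fold change of −2.06 (difference 1.23, standard error 0.16, edgeR adjusted *p* = 0.0014).

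The desaturase genes *fat-5* and *fat-7* and the protease gene *cpr-1* showed a rise with glucose that was smaller by fold. The difference between diets did not pass for *fat-6* (1.87 with glucose and 1.45 without, edgeR adjusted *p* = 0.53) or *fat-2* (2.15 and 2.25, edgeR adjusted *p* = 0.98). *fat-7* had a log2 fold change of 3.83 with glucose and 4.79 without (difference −0.96, standard error 0.16, edgeR adjusted *p* = 0.0086), although its level in *lpin-1(RNAi)* animals was higher with glucose. On control diets it was at 1204, 1338 and 1400.3 CPM in *lpin-1(RNAi)* animals, against 50.2, 50.5 and 41.3 CPM in *control(RNAi)* animals. *fat-5* had 2.30 with glucose and 3.53 without (difference −1.23, standard error 0.17, edgeR adjusted *p* = 0.0025), and *cpr-1*, a cathepsin B-like protease gene, 0.93 and 3.69 (difference −2.76, standard error 0.16, edgeR adjusted *p* = 6.2e-06). Mean *fat-5* levels in *lpin-1(RNAi)* animals were 869 CPM with glucose and 473 CPM without, against 177 and 41.0 CPM in *control(RNAi)* animals. In CPM the rises of *fat-5* and *fat-7* were thus larger with glucose. *ugt-36* (1.33 and 3.84), *D2063.1* (2.66 and 5.92) and *abf-2*, an antibacterial factor gene (2.30 and 5.40), also had rises that were smaller by fold on glucose, and were with *cpr-1* among the 5 genes of lowest difference. *elo-2* went the other way, with a larger effect on glucose (1.61) than without (1.09, difference 0.52, standard error 0.10, edgeR adjusted *p* = 0.016).

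A few named genes were called with glucose and not without it, with a difference that passed the test. *lips-10* was at 10.8, 11.2 and 9.88 CPM in *lpin-1(RNAi)* animals and 8.2, 8.98 and 9.92 CPM in *control(RNAi)* animals on control diets, a log2 fold change of 0.24, against 1.73 with glucose (difference 1.49, standard error 0.20, edgeR adjusted *p* = 0.0019). *cpr-4* was lower with glucose (−1.71) and not without (0.23, difference −1.94, standard error 0.29, edgeR adjusted *p* = 0.0037). *aat-6* fell further with glucose (−2.37) than without (−0.94, edgeR adjusted *p* = 8.1e-05, past the adjusted *p* but short of the fold threshold, difference −1.43, standard error 0.20, edgeR adjusted *p* = 0.0025). Without glucose *spp-12* had 4, 4 and 2 counts in *lpin-1(RNAi)* animals. *spp-9* was called on both diets, at means of 26.2 CPM in *lpin-1(RNAi)* animals with glucose and 0.0998 CPM without. Its *control(RNAi)* libraries without glucose were at 0 CPM. With so few reads the test of its difference could not decide (edgeR adjusted *p* = 0.996). *T19B10.5*, a gene with no given name, was the clearest reversal among the genes named by rule: 121.7, 58.8 and 84.6 CPM in *lpin-1(RNAi)* animals, against 14.5, 14 and 17.8 CPM in *control(RNAi)* animals with glucose, but 3.13, 3.2 and 3.77 CPM in *lpin-1(RNAi)* animals, against 9.84, 11.3 and 12.7 CPM in *control(RNAi)* animals, without it (log2 fold changes 2.52 and −1.76, difference 4.27, standard error 0.32, edgeR adjusted *p* = 5.5e-05). Among the genes named by rule with the highest differences, *nhr-74* (−3.02 with glucose and −8.25 without), *Y48E1B.8* (−3.49 and −7.54) and *F45D11.14* (−1.71 and −6.04) fell less with glucose. The sizes of 2 of these differences were unstable. With 1 replicate number left out they lay between 4.48 and 7.57 for *nhr-74* and between 3.54 and 12.35 for *F45D11.14*, against between 3.88 and 4.17 for *Y48E1B.8*. Of the named genes with a difference past the adjusted *p*, *T19B10.5* and *cpr-1* alone passed it without each replicate number in turn. Only 2 genes were called in opposite directions on the 2 diets, *T19B10.5* and *cyp-13B1*, a P450 gene named after its values were seen (1.14 with glucose, −1.41 without). Its call with glucose was lost without replicate 1 (0.99, edgeR adjusted *p* = 0.071).

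**Figure D5:**
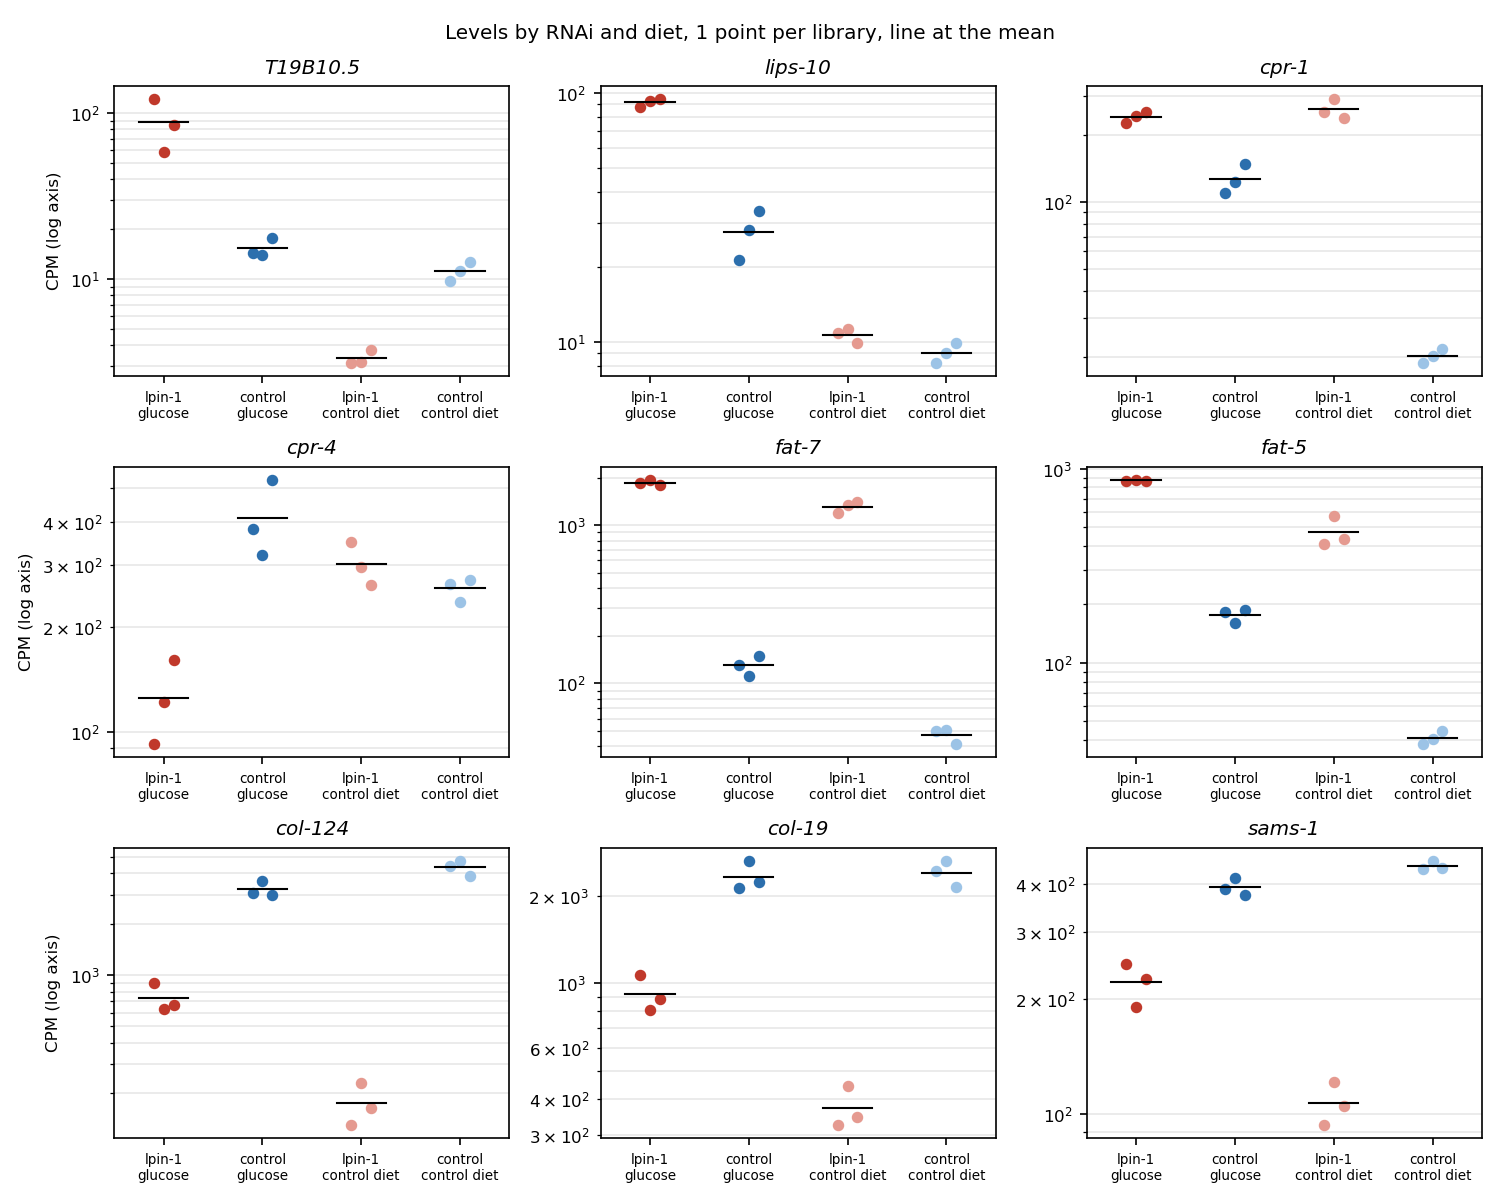
CPM of 9 genes whose effect of *lpin-1* RNAi differed between diets, on log axes, 1 point per library with lines at the means, for *lpin-1(RNAi)* and *control(RNAi)* animals with glucose and then for both on control diets. *T19B10.5* is higher in *lpin-1(RNAi)* animals with glucose and lower without, *col-124*, *col-19* and *sams-1* fall less with glucose, and *fat-5*, *fat-7* and *cpr-1* have higher *control(RNAi)* levels with glucose.

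Some of the genes described overlap another gene on the other strand, among them *fat-5*, *pod-2*, *F37C4.5*, *Y54G2A.18*, *acs-17*, *pmp-4*, *col-124*, *swt-6*, *ptr-8*, *cth-2*, *gpdh-1*, *pals-32*, *ugt-22*, *nlp-24*, *vit-2* and *C30H6.12*, and *lipl-3* and *acdh-2* overlap one on the same strand. The libraries were made with a stranded kit, but whether the counting used the strand is not given in the sources used here, so reads of such partners may not be told apart.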

How the data were processed

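Whole adult worms of 4 groups, with 3 libraries each, were sequenced from total RNA with a stranded TruSeq kit. Per the submitters' processing notes, reads were aligned with STAR 2.7.0e and counted with RSEM 1.3.1 on WBcel235, and DESeq2 1.22.2 was named with them. The files that the authors deposited hold RSEM expected counts for each gene, not normalized, and these were rounded to whole numbers here. RSEM divides reads that fit several near-identical genes, which affects copies and gene families. Gene names, positions and strands came from the Ensembl annotation of WBcel235, which named 46603 of the 46778 IDs. Promoter sequences were not analysed here. Whether the counting used the strand is not given in the sources used here.

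All 12 libraries were fitted with 4 group means in edgeR 4.0.16 (R 4.3.3), after filterByExpr and TMM scaling, with 8 residual degrees of freedom. The *lpin-1* RNAi effect with glucose, that on control diets and their difference (glucose-rich minus control) were tested by the quasi-likelihood test with Benjamini-Hochberg adjustment over all 14696 genes. A count of 3 per library served as the floor for genes near 0. On simulated counts for the main comparison (14369 genes), 98.98% of 197 changed genes were called and 1.015% of the calls were of unchanged genes. The simulation gave every gene the same spread (dispersion 0.0213), 4-fold changes and no link between replicate numbers. It checks that the steps run as meant, and its rates do not carry over to the deposited counts.

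Genes were named by rule: *lpin-1*, 11 genes that the study names, the 10 largest rises and falls by fold and by CPM among called genes, the leading and the most counted genes of each list, and the 5 highest and 5 lowest differences between diets. The largest folds, leading list genes and differences were taken only from genes whose groups with glucose did not overlap in CPM. They also needed at least 10 counts in every library of the higher group, or of the highest group for the differences. The separation of such genes was thus fixed by the rule and is no further evidence. Named outside it, for their roles and after their values were seen, were *abhd-5.2*, *asp-1*, *ckb-2*, *cul-6*, *cyp-13B1*, *dgat-2*, *elt-2*, *fasn-1*, *fat-1*, *fat-3*, *gst-4*, *hsp-17*, *hsp-4*, *hsp-43*, *ifb-2*, *numr-1*, *pals-22*, *pals-25*, *pcyt-1*, *rme-2*, *sams-1*, *sbp-1*, *sptl-2* and *sptl-3*. The comparison, genes and lists were chosen with earlier results of these data known. Lists are described by counts and medians, with no test.

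The labels give every group the replicate numbers 1 to 3 without saying what they share. Samples with the same number deviated together in the main comparison (correlations of deviations from the group means of 0.26, 0.40 and 0.36), so a fit with the number as a block was set beside it. Other alternatives were DESeq2 1.42.0, other scalings, filters, prior counts, thresholds, a fit of the 6 glucose libraries alone and the leaving out of replicates and libraries. Summing near-identical copies was added after the data were seen.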

Additional observations from a re-analysis of the deposited data

Results flagged for a closer look

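The effect of *lpin-1* RNAi differed between the glucose-rich and the control diets, by a test of that difference in the same edgeR fit with Benjamini-Hochberg adjustment, for 31 single genes described above and for 1 summed pair of copies. Values are the difference of the log2 fold changes, glucose-rich minus control, so rises and falls are compared by fold and not in CPM. Smaller falls on glucose-rich diets were found for the collagen genes *col-124* (2.49, edgeR adjusted *p* = 6.5e-04), *col-101* (1.59, edgeR adjusted *p* = 0.009), *col-19* (1.36, edgeR adjusted *p* = 0.0037), *col-181* (1.34, edgeR adjusted *p* = 0.0016), *col-122* (1.17, edgeR adjusted *p* = 0.0046), *col-20* (1.01, edgeR adjusted *p* = 0.0045) and *col-140* (0.81, edgeR adjusted *p* = 0.025). Smaller falls were also found for the summed *pud-1* copies (2.30, edgeR adjusted *p* = 0.023), *nhr-74* (5.22, edgeR adjusted *p* = 0.013), *F45D11.14* (4.33, edgeR adjusted *p* = 0.032), *Y48E1B.8* (4.05, edgeR adjusted *p* = 0.0034), *vit-3* (1.49, edgeR adjusted *p* = 0.042), *sams-1* (1.23, edgeR adjusted *p* = 0.0014) and *gst-4* (1.02, edgeR adjusted *p* = 0.0031).

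Smaller rises on glucose-rich diets were found for *fat-7* (−0.96, edgeR adjusted *p* = 0.0086), *fat-5* (−1.23, edgeR adjusted *p* = 0.0025), *ckb-2* (−0.93, edgeR adjusted *p* = 0.04), *hsp-43* (−1.21, edgeR adjusted *p* = 0.0045), *ttr-26* (−1.39, edgeR adjusted *p* = 0.013), *Y54G2A.18* (−0.76, edgeR adjusted *p* = 0.032), *cpr-1* (−2.76, edgeR adjusted *p* = 6.2e-06), *ugt-36* (−2.51, edgeR adjusted *p* = 0.0014), *abf-2* (−3.10, edgeR adjusted *p* = 0.0031) and *D2063.1* (−3.25, edgeR adjusted *p* = 0.0038). Rises that were larger with glucose, or present with it alone, were those of *elo-2* (0.52, edgeR adjusted *p* = 0.016), *lips-10* (1.49, edgeR adjusted *p* = 0.0019), *T19B10.5* (4.27, edgeR adjusted *p* = 5.5e-05), *cyp-13B1* (2.54, edgeR adjusted *p* = 0.0087) and *spp-12* (6.68, edgeR adjusted *p* = 0.038). For *spp-12* the libraries on control diets held at most 4 counts, so that its fitted difference depends on the prior count. Falls that were larger with glucose were those of *aat-6* (−1.43, edgeR adjusted *p* = 0.0025), *far-5* (−1.57, edgeR adjusted *p* = 0.023) and *cpr-4* (−1.94, edgeR adjusted *p* = 0.0037). Of the 31 single genes, 2 (*T19B10.5* and *cpr-1*) passed without each replicate number in turn, and no explanation of these differences was tested.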

How the results depend on the processing

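No log2 fold change of a named gene that passed the test changed sign under any alternative run. Over 146 named gene IDs, with near-identical copies counted singly, 2369 values under the alternatives kept their side of the threshold, 52 no longer passed and 17 newly passed. The threshold was that of a call for called genes and the adjusted *p* alone for the others. A total of 125 IDs kept their side throughout. The 1181 genes higher on glucose-rich diets were 782 with at least 10 counts in every library, 2353 (and 2321 lower) by the adjusted *p* alone and 601 (and 329 lower) when the fold change was tested against 2. The difference between diets had 55 lower genes, and 103 with DESeq2, 87 with no filter on low counts and 104 in the blocked fit, which holds the replicate number. Tested against a fold change of 2, it had 12 higher and 4 lower genes. Leaving out replicates or single libraries gave between 1 and 145 higher and between 2 and 67 lower genes for that difference, with 75 higher without the *lpin-1(RNAi)* glucose replicate 1 and 33 lower without the *control(RNAi)* glucose replicate 3. For the effect on glucose-rich diets it gave between 931 and 1244 higher and between 534 and 681 lower genes. With the replicate block that effect had 1284 higher and 645 lower genes. Among named genes the block changed the call of *aldo-2* (log2 fold change 0.23, edgeR adjusted *p* = 0.033) and *hsp-1* (−0.31, edgeR adjusted *p* = 0.025) by the adjusted *p* alone, besides *fat-4* and *vit-6*. The call of *F45D11.14* was lost without replicate 1 or 3 and without any 1 of the 6 glucose libraries (edgeR adjusted *p* between 0.051 and 0.105), and that of 1 of the *hsp-16.1* copies, whose reads are divided, without replicate 1 or 2. Leaving out a single glucose library also ended the call of *lipl-1*, *lipl-5*, *sptl-3*, *col-119* or *cyp-13B1*, and raised the edgeR adjusted *p* of *fat-3* and *sbp-1* above 0.05. Leaving out 1 replicate number removed all lower calls from the intracellular pathogen (2) and antimicrobial peptide (1) lists, the 1 higher intestinal marker and 1 of the 2 higher peroxisomal genes, and added 1 lower call in the mitochondrial unfolded protein response and 1 higher in the respiratory chain. The number of sperm genes called was 20 without replicate 2. The causes of these shifts were not tested. Genes near the count floor, 3 libraries in each group and reads divided among copies limit the precision.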
